A study of Homo sapiens with 32 samples.

Results

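NME7 and ATP1B1 are neighbouring genes on the long arm of chromosome 1 that run toward each other on opposite strands and end on the same bases. They are 2 of the 57773 genes in the deposited count table and were taken by name, in all 32 libraries. They were chosen by the response to tamoxifen in earlier results of these data, in which NME7 was higher after induction of a repressive construct and lower after induction of an activating one. For the repressive and activating lines the values are therefore a description with no test. The pattern belonged to the NME7 row. ATP1B1 had 1 to 14 counts per library, and the 95% intervals of its own log2 fold changes included 0 in both lines. These intervals describe precision and are not a test, so a change of ATP1B1 is neither shown nor excluded. The pair is therefore described here as the NME7 and ATP1B1 locus, with no statement on a change of the sodium pump.

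ATP1B1 encodes the beta 1 subunit of the sodium-potassium ATPase, the pump that moves sodium out of and potassium into the cell against their gradients. The alpha subunit binds the ions and splits ATP, and the beta subunit, a glycoprotein with a single membrane span, is needed for alpha to fold and reach the plasma membrane and also takes part in adhesion between epithelial cells. FXYD proteins are small partners that tune the pump. NME7 belongs to the nucleoside diphosphate kinase family, whose members pass a phosphate group between nucleotides, and it is a component of the gamma-tubulin ring complex, from which microtubules grow.

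RNA was sequenced from LNCaP, a prostate cancer cell line from a lymph node metastasis. The parental line and derived lines that carried a neutral, repressive or activating MACC were each given 2.5 µM tamoxifen or ethanol vehicle for 48 h, with 4 biological replicates per condition. A MACC (modifier of chromatin around androgen response elements) joins a DNA binding domain for those elements to a tamoxifen-responsive ERT2 domain and a FLAG tag. The neutral form has no effector, the repressive form carries KRAB and the activating form carries VP64. All MACC lines were stable lines kept under blasticidin, and no such selection is given for the parental line. The parental line therefore shows what tamoxifen does without a construct, and the neutral line what the bound construct does without an effector.

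The 32 libraries held 454982 to 1164808 counts, with a median of 669922, and 3985 genes passed the expression filter and were tested. The 6 luminal prostate markers read here, KLK3 and HOXB13 among them, summed to 47 to 206 counts per library. ESR1, whose ligand binding domain is in every MACC, had 0 to 2 counts in the parental libraries and 66 to 159 in the MACC libraries. TP63, COL1A2, DCN, CD3E and PTPRC, markers of basal, stromal and immune cells, were at 0 in every library. COL1A1, VIM and KRT14 had at most 2, 3 and 3 counts. The luminal genes KLK2 and TMPRSS2 had only 2 to 18 and 1 to 13 counts per library, so a row at 0 does not show that the RNA was absent. CD68, a macrophage marker, had 0 to 18 counts per library and 9 to 18 in the activating tamoxifen libraries. That range overlapped those of other groups, such as activating vehicle (4 to 13), parental tamoxifen (2 to 14) and repressive vehicle (0 to 15).

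On GRCh37 the annotation placed ATP1B1 (ENSG00000143153) on chromosome 1 from 169074935 to 169280230 on the plus strand. NME7 (ENSG00000143156) lay on chromosome 1 from 169101769 to 169337186 on the minus strand. The canonical ATP1B1 transcript had 6 exons and 2216 bases, and that of NME7 had 12 exons and 1472 bases. Their last exons shared 189 bases, from 169101769 to 169101957, at the 3' ends of both transcripts. Of the annotated transcripts, 14 of 19 from ATP1B1 and 5 of 14 from NME7 had bases on an exon of the other gene. Over all transcripts 287 exonic bases were shared, which was 2.34% of the exonic length of ATP1B1 and 5.02% of that of NME7. The libraries came from a kit that keeps strand, and the strand setting used for counting is not given in the sources used here. On shared bases, reads from a gene and from its partner on the other strand could therefore not be told apart. Of the canonical ATP1B1 bases 2027 lay off NME7 exons, but gene counts do not show which bases the reads came from. Among the genes of the count table found in the annotation, those with such an exon overlap were 21% and took 79.6% of the counts. The values below are those of the rows named NME7 and ATP1B1.

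**Figure D1:**
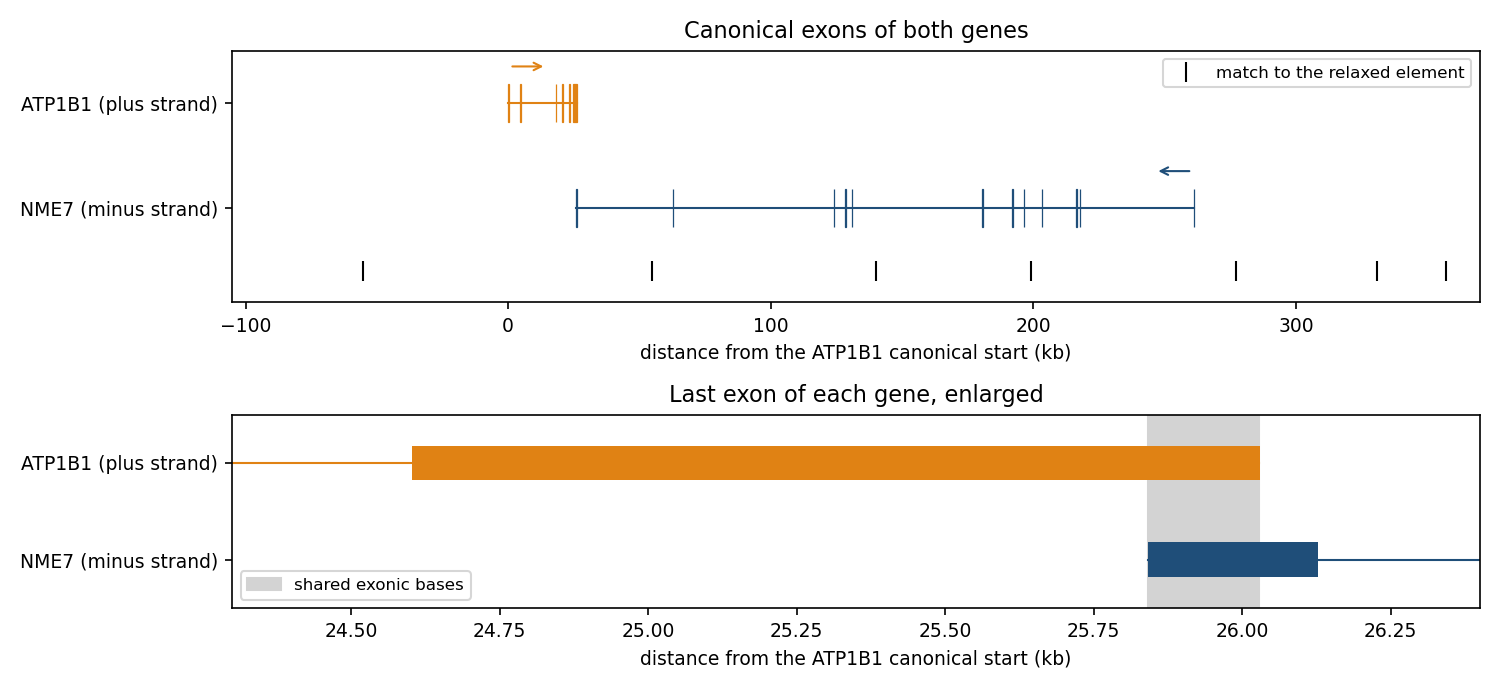
Map of the canonical exons of ATP1B1 and NME7, with distance from the canonical ATP1B1 start in kb on the horizontal axis, arrows for the direction of transcription and ticks for the 7 matches to the relaxed androgen response element. The lower panel enlarges the last exons, and the grey band marks the 189 bases that both share.

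A MACC is directed to androgen response elements, which are inverted repeats of AGAACA with 3 bases between them, so the sequence of the locus was searched for them. Neither promoter (250 bases before to 50 after the RefSeq start, GRCh38.p14) held AGAACA on either strand, whereas 14.8% of 35116 promoters did. The ATP1B1 promoter was 77% G or C and that of NME7 54.7%, against a median of 58.7%. The window from 100 kb before ATP1B1 to 100 kb after NME7 held 0 matches to the full element (AGAACA, 3 bases of any kind, TGTTCT), and 8.58% of the 466 windows of that length on chromosome 1 held at least 1. A relaxed form (GNACA, 3 bases of any kind, TGTNC, with N for any base) matched 7 times, where the median window held 6 and 40.3% of windows held at least 7. Neither promoter of the pair held it, and 0.39% of promoters did. The relaxed form was added after the full one gave no match. Of the 7 matches, 3 lay in introns of NME7 and also inside the span of a single long ATP1B1 transcript. They are shown with the nearest match on each side, chosen by their position, as the matches in or next to NME7, read on the plus strand of GRCh37, with the 13 matched bases in capitals.
Left of ATP1B1, chr1:169020583-169020611: gtggggagGAACACTGTGTCCtcacatgg
NME7 intron, chr1:169130517-169130545: ttgtatttGTACAAGTTGTTCcctctttg
NME7 intron, chr1:169215782-169215810: cctaacaaGAACAAGCTGTACattcctta
NME7 intron, chr1:169275351-169275379: gtgataaaGCACAACATGTTCagggaact
Right of NME7, chr1:169352722-169352750: agaatcttGGACAAGTTGTCCagacatgt
A match is a run of letters and not a measured binding site. No binding data were used here.

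The row named NME7 held many more counts than the row named ATP1B1. Over the 32 libraries NME7 had a mean of 73 counts, above 75.6% of the tested genes, and ATP1B1 a mean of 6.41, above 4.42%. Per kb of canonical transcript the mean level was 49.6 counts for NME7 and 2.89 for ATP1B1. NME7 supplied 91.9% of the counts of the pair over all libraries. Its share was 87.8% in parental vehicle, 95.5% in repressive tamoxifen and 74.3% in activating tamoxifen libraries. The row of the pump subunit thus held few reads in every condition, and differences in it were hard to detect at this depth.

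In the repressive line NME7 stood apart between treatments. The vehicle libraries had 81, 69, 28 and 66 counts, and the tamoxifen libraries 226, 176, 173 and 188. The lowest tamoxifen library was above the highest vehicle library, so the groups did not overlap, and vehicle replicate 3 was the lowest of its group. In normalized counts (CPM over the tested genes after TMM scaling across all libraries) the level was 88.2 ± 22.7 (SD, n = 4) under vehicle and 285 ± 26.6 (SD, n = 4) under tamoxifen. The log2 fold change was 1.68 (standard error 0.136), or 3.2-fold, the 9th highest of the 3985 tested genes. In this comparison 17.8% of tested genes were called, and nothing is read from that share for NME7, since this contrast chose it. In such bulk RNA a change in the number of cells that give reads to this row and a change per cell cannot be told apart. Whether the reads of the row came from NME7 or from ATP1B1 on the shared bases was not tested.

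In the activating line the direction was opposite. NME7 had 75, 52, 64 and 54 counts under vehicle and 8, 18, 15 and 11 under tamoxifen. All tamoxifen libraries were below all vehicle libraries. The normalized level was 85.6 ± 13.4 (SD, n = 4) under vehicle and 27.7 ± 10.5 (SD, n = 4) under tamoxifen. The log2 fold change came to -1.64 (standard error 0.238), or 3.12-fold lower. It was the 284th lowest of 3985 genes in a comparison where 44.8% of genes were called, a share again given as background alone. With scaling by total counts in place of TMM the log2 fold change was -2.09. KRT5, a basal keratin, had 38 to 54 counts in the activating tamoxifen libraries and 0 in every other library, while TP63 and KRT14 were at 0 in the activating tamoxifen libraries. The part of KRT5 or CD68 in the NME7 values was not tested.

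ATP1B1 did not separate the treatments in either line. The repressive vehicle libraries had 5, 8, 1 and 7 counts and the tamoxifen libraries 12, 4, 9 and 11. Of the tamoxifen libraries 3 lay above every vehicle library and the ranges overlapped. The log2 fold change was 0.79 (standard error 0.434, 95% interval -0.06 to 1.64). For the activating line the counts were 14, 5, 8 and 5 under vehicle and 4, 2, 6 and 6 under tamoxifen. These ranges overlapped too, and the log2 fold change was -0.22 (standard error 0.457, 95% interval -1.11 to 0.68). Its sign turned without vehicle replicate 1 (0.05) or tamoxifen replicate 2 (0.04), and total count scaling gave -0.66. Changes smaller than these intervals were not detectable in ATP1B1 at its depth.

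**Figure D2:**
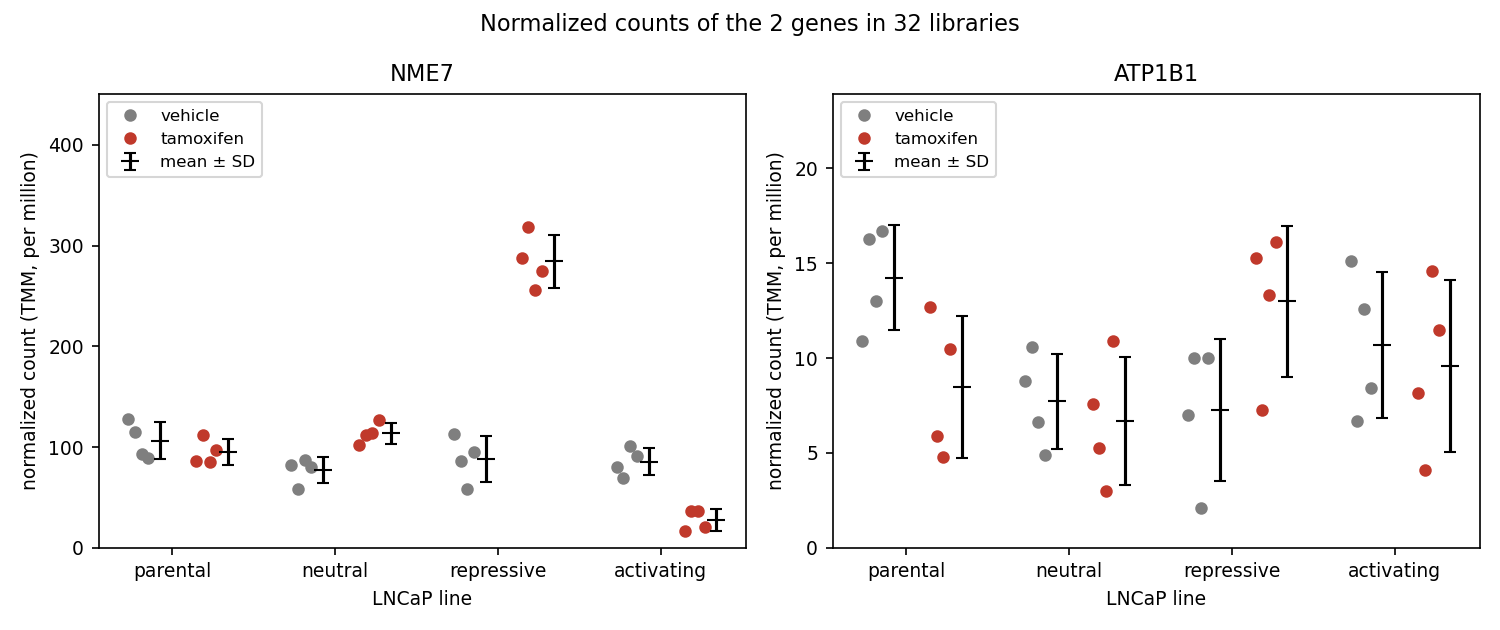
Normalized counts (CPM over tested genes after TMM scaling, on vertical axes that differ between panels) of NME7 and ATP1B1 in each of the 32 libraries, by line and treatment, with the mean ± SD of 4 libraries in black. The repressive tamoxifen libraries of NME7 lie between 256 and 319 and the activating tamoxifen libraries between 16.3 and 36.7, while the ATP1B1 values of every line overlap between treatments.

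Tamoxifen without a construct left both genes without a call. In the parental line NME7 had 59, 71, 43 and 64 counts under vehicle and 61, 57, 53 and 65 under tamoxifen, and the ranges overlapped. The normalized level was 106 ± 18.6 under vehicle and 95 ± 12.4 under tamoxifen (SD, n = 4 each). This gave a log2 fold change of -0.15 (standard error 0.169, 95% interval -0.48 to 0.18, adjusted p = 0.848 from edgeR with Benjamini-Hochberg adjustment). ATP1B1 had 5, 10, 6 and 12 counts under vehicle and 9, 3, 3 and 7 under tamoxifen, with a log2 fold change of -0.71 (standard error 0.419, edgeR adjusted p = 0.709). In normalized counts 3 tamoxifen libraries were below every vehicle library, and the ranges overlapped. Called genes were 0 of 3985 (0%) with edgeR and 0 with DESeq2, and 306 had an unadjusted p under 0.05 with edgeR.

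The neutral construct, which has no effector, came with a small rise of NME7. The vehicle libraries had 65, 44, 66 and 66 counts and the tamoxifen libraries 94, 64, 77 and 82. Normalized counts were 58.3 to 87.2 under vehicle and 102 to 127 under tamoxifen, with no overlap. NME7 rose by 0.56 on the log2 scale (standard error 0.153), or 1.47-fold, with an adjusted p of 0.0386 from edgeR and Benjamini-Hochberg adjustment, in a comparison that called 4.72% of tested genes, 2.61% as higher. The call was lost with DESeq2 (adjusted p = 0.0562) and with total count scaling in edgeR (adjusted p = 0.225). It was also lost without vehicle replicate 2 or 4 and without tamoxifen replicate 2 or 3, with edgeR adjusted p up to 0.108.

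ATP1B1 gave no call in the neutral line. It had 7, 8, 5 and 4 counts under vehicle and 7, 3, 2 and 7 under tamoxifen, and the ranges overlapped. The log2 fold change was -0.18 (standard error 0.475, 95% interval -1.12 to 0.75, edgeR adjusted p = 0.903). Its sign turned when vehicle replicate 2 or tamoxifen replicate 3 was left out.

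Whether the small NME7 response of the neutral line differed from that of the parental line was tested as an interaction over 16 libraries. The difference of the log2 fold changes was 0.73 for NME7 (standard error 0.225, 95% interval 0.29 to 1.17, adjusted p = 0.109 from edgeR), where 1.48% of genes were called, and 0.55 for ATP1B1 (standard error 0.639, edgeR adjusted p = 0.877). Neither passed the threshold. The rise in the neutral line is thus not shown to differ from the parental response.

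The neutral and parental lines were also compared under each treatment, with the same libraries as above. Under vehicle NME7 was at 77 ± 12.8 normalized counts in the neutral and 106 ± 18.6 in the parental line (SD, n = 4 each), a log2 difference of -0.47 (standard error 0.173, adjusted p = 0.0789 from edgeR), where 9.74% of genes were called. Under tamoxifen the log2 difference was 0.26 (standard error 0.149, edgeR adjusted p = 0.359), where 6.88% were called. ATP1B1 differed by -0.92 under vehicle (standard error 0.406, edgeR adjusted p = 0.166) and by -0.36 under tamoxifen (standard error 0.515, edgeR adjusted p = 0.77). Of these 4 differences 0 passed the threshold. The repressive and activating vehicle libraries had mean NME7 levels of 88.2 and 85.6 normalized counts, between the neutral and parental means, and these were not tested.

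**Figure D3:**
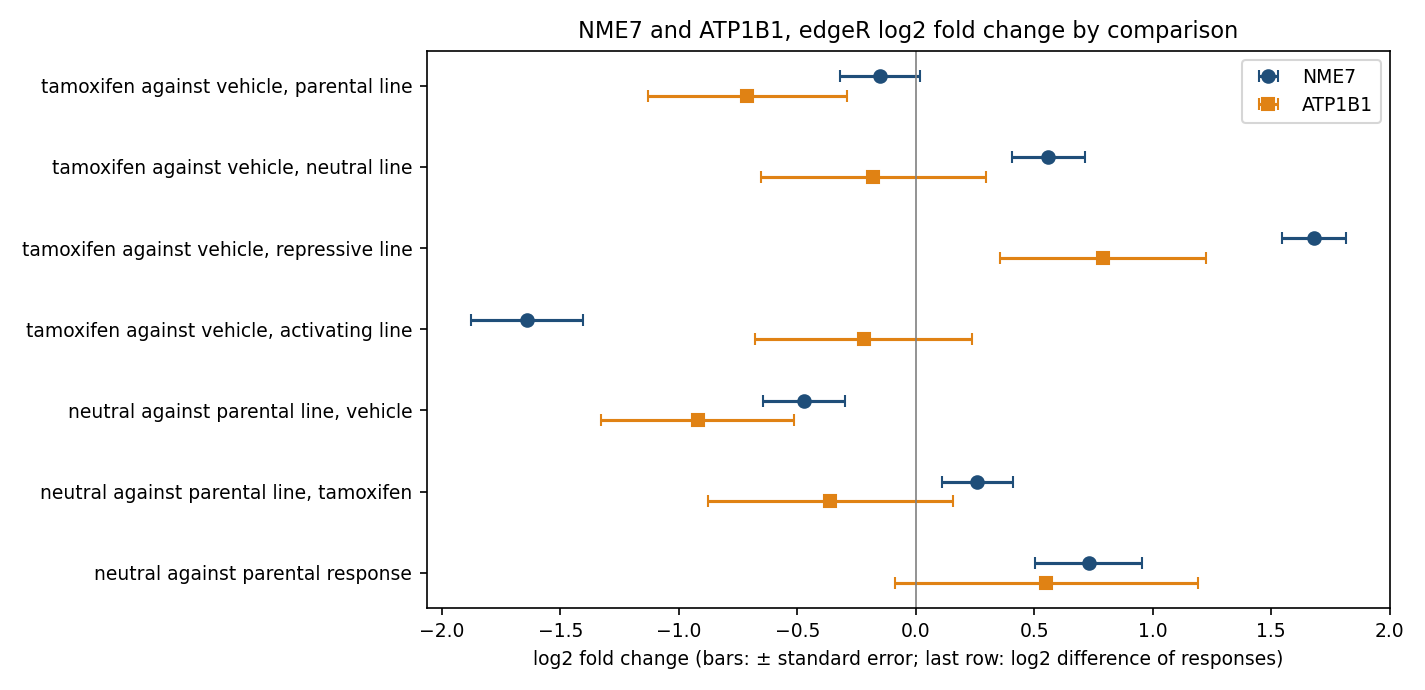
edgeR log2 fold change (horizontal axis, ± standard error) of NME7 and ATP1B1 in 7 comparisons, the last being the difference between 2 log2 fold changes. NME7 lies at 1.68 in the repressive and at -1.64 in the activating line, which are the values that chose it, and between -0.47 and 0.73 in the other comparisons.

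Ordered by mean level, NME7 was highest in repressive tamoxifen libraries (285), 2.5 times the next group. Then came neutral tamoxifen (114), parental vehicle (106), parental tamoxifen (95), repressive vehicle (88.2), activating vehicle (85.6) and neutral vehicle (77). Each of these 6 groups overlapped its neighbour in the order. Activating tamoxifen was lowest (27.7), and neutral vehicle, the group above it, was 2.78 times as high with no overlap. ATP1B1 had its highest mean in parental vehicle libraries (14.2) and its lowest in neutral tamoxifen (6.66), and every group overlapped its neighbour in the order. Repressive tamoxifen, the top group for NME7, came next for ATP1B1 (13) and overlapped parental vehicle. The top of the ATP1B1 order is therefore not shown to differ from that of NME7.

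The genes whose levels followed NME7 most closely were found among 2095 tested genes with a mean of at least 20 counts, by Pearson's r of log2 CPM. Over the 32 libraries these were SH3BP5-AS1 (r = 0.912), RP11-362K14.5 (0.903), RP4-594I10.3 (0.898), H2AFY (0.897), which encodes the histone variant macroH2A1, and UTS2 (0.886), which encodes the peptide urotensin 2. The points share library and depth, and the lines that chose NME7 are among them, so these r values are a description. Over the 8 group means the closest were ZMYM4-AS1 (0.986), H2AFY (0.97), CBR3-AS1 (0.962), SH3BP5-AS1 (0.958) and BRICD5 (0.955). H2AFY and SH3BP5-AS1 stood in both sets. None of the 8 distinct genes matched the size of the NME7 difference in the repressive line. That contrast chose NME7, so its place above them is a description and not a result. H2AFY came nearest, with log2 fold changes of 1.13 in the repressive and -1.91 in the activating line. UTS2 had 0.62 and -2.11, and SH3BP5-AS1 0.90 and -0.88. Like NME7, all 8 had exons that overlap exons of a gene on the opposite strand, as did 72.6% of the 3839 tested genes found in the annotation. UTS2 for example lies opposite PER3, a period gene of the circadian clock, with 868 shared bases and a mean of 0.156 counts for PER3 against 73.2 for UTS2. NME7 with 73 and ATP1B1 with 6.41 counts have the same order. H2AFY had a mean of 160 counts against 165 for C5orf66 opposite to it, and CBR3-AS1 had 27.1 against 23.1 for CBR3 and 52.3 for RPS9P1, so the order was not shared by all 8.

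**Figure D4:**
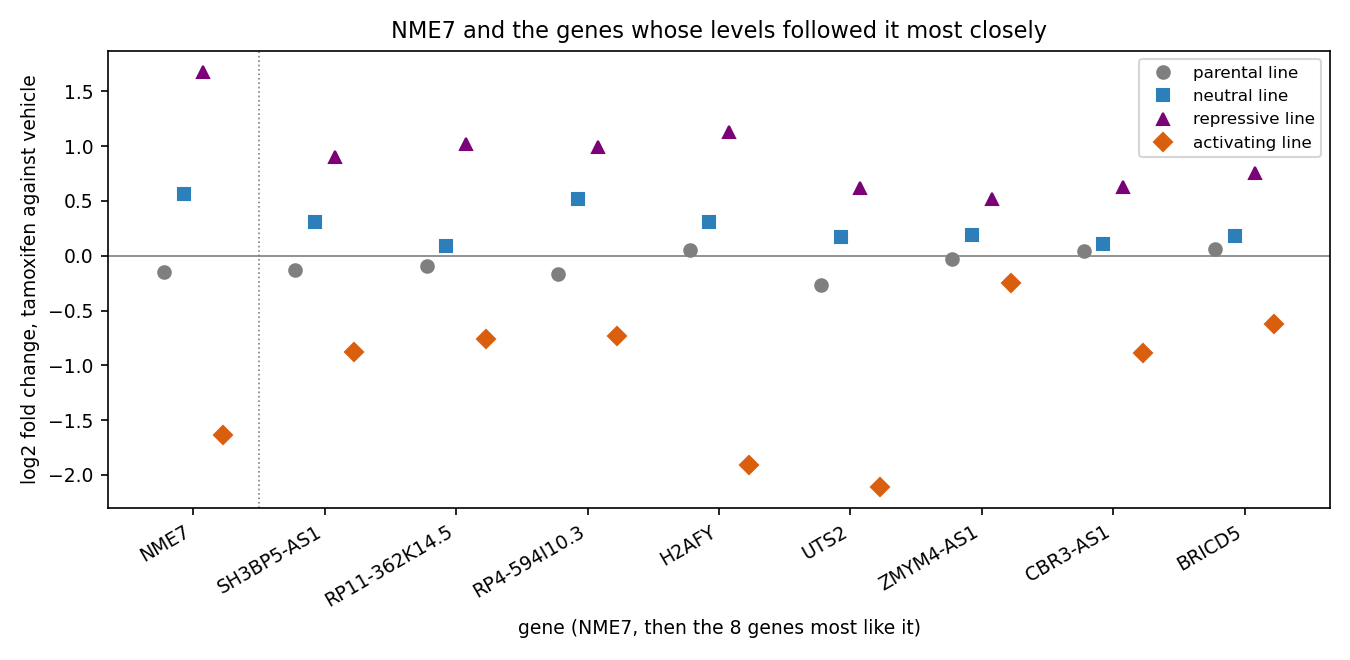
log2 fold change of tamoxifen against vehicle (vertical axis) in the 4 lines, for NME7 and the 8 genes most like it (horizontal axis). Repressive values lie above 0 and activating values below 0 for every gene, which is how they came to follow NME7. The largest repressive value is that of NME7, 1.68, in a contrast that chose it.

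The other subunit and FXYD genes of the sodium pump read here had few counts. Of these 15 features, those opposite to them included, 5 had no count in any library, 13 had at most 3 counts in every library and none passed the filter. ATP1B3, the other widely expressed beta subunit, had at most 8 counts in any library, and FXYD6, a regulator of the pump, at most 4.

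Of 38 genes of sodium and potassium transport 4 were tested. Over all tested genes 17.8% were called in the repressive and 44.8% in the activating line, so calls there say little about the list. STK39, a kinase that acts on cation-chloride cotransporters, had 1 to 26 counts per library. With the repressive construct it fell by 1.66 in log2 units (edgeR adjusted p = 0.0285, DESeq2 adjusted p = 0.131). The repressive tamoxifen libraries had 1 to 4 counts, and 3 of 8 fits with 1 library left out kept the call. Without the low-count filter the edgeR adjusted p was 0.104. STK39 was at -0.79 in the neutral line (edgeR adjusted p = 0.4). The repressive response differed from the neutral one by -0.88 (edgeR interaction, adjusted p = 0.666), so the fall is not shown to be particular to the repressive construct. With the activating construct STK39 rose by 1.44 (edgeR adjusted p = 0.00175). Each direction was opposite to that of NME7. KCNMA1, a potassium channel gene, rose by 2.64 in the activating line (edgeR adjusted p = 1.65e-06). It shares 419 exonic bases with RP11-443A13.5 on the opposite strand, which had a mean of 52.1 counts against 4.81 for KCNMA1. Which of them gave the reads of the KCNMA1 row was not tested. Set against the neutral line, by an interaction test that was chosen after seeing the data and called 33.4% of genes, the responses in the activating line were larger by 2.20 for STK39 and 3.91 for KCNMA1 (edgeR adjusted p = 0.0039 and 0.000806), although KCNMA1 had 0 to 4 counts in the neutral libraries. SLC5A6 and WNK1 were not called in any line, except that SLC5A6 passed in the neutral line without tamoxifen replicate 4 (0.72, edgeR adjusted p = 0.00839) and in the repressive line without tamoxifen replicate 1 (0.62, edgeR adjusted p = 0.00992) or with the replicate block (0.42, edgeR adjusted p = 0.0382).

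Of 21 genes of the nucleoside diphosphate kinase family and the gamma-tubulin complex, the company of NME7, 4 were tested. None of the 4 was called in the parental or neutral line, where 0% and 4.72% of all genes were called, so nothing is read from that count. In the repressive and activating lines 17.8% and 44.8% of tested genes were called. The calls given next are therefore not read as a trait of the list. No other NME gene passed the filter. TUBGCP2, a core protein of the complex, fell in both lines, by 0.62 with the repressive and by 1.28 with the activating construct (adjusted p = 0.028 and 4.79e-05 from edgeR). It was at -0.43 in the neutral line (edgeR adjusted p = 0.249). The repressive response differed from the neutral one by -0.19 (edgeR interaction, adjusted p = 0.858), so its fall is not shown to be particular to the repressive construct. MZT2B fell by 0.93 in the repressive and rose by 0.92 in the activating line (edgeR adjusted p = 0.0105 and 0.00672). Against the neutral response these differences were -0.96 and 0.86 (edgeR interaction, adjusted p = 0.182 and 0.0925). The activating one passed with the replicate block (0.93, edgeR adjusted p = 0.0306) or without activating tamoxifen replicate 4 or vehicle replicate 1. TUBGCP4 rose by 0.56 in the activating line (edgeR adjusted p = 0.00993). DESeq2 did not call TUBGCP2 or MZT2B in the repressive line (adjusted p = 0.117 and 0.0518), and total count scaling ended the calls of MZT2B and TUBGCP4 in the activating line (edgeR adjusted p = 0.178 and 0.584). In the repressive line TUBGCP4 was at -0.49 (edgeR adjusted p = 0.0651). It passed there as lower with total count scaling (-0.62, edgeR adjusted p = 0.0196) and the replicate block (-0.51, edgeR adjusted p = 0.0185). The same held without repressive tamoxifen replicate 3 or vehicle replicate 4 (edgeR adjusted p = 0.0359 and 0.045). These genes too have partners on the opposite strand. MZT2B shares 519 exonic bases with SMPD4 (mean counts 22.8 and 196). TUBGCP4 shares 3732 with TP53BP1 (53.3 and 31.9), and TUBGCP2 shares 805 with ZNF511 (37.5 and 2.03). The origin of the reads in their rows was not tested. NME7 thus had no family member beside it in the table with enough counts to compare.

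Few genes around the locus had enough counts to compare with it. BLZF1, which starts 22 bases beyond the end of NME7 and runs away from it on the plus strand, had at most 1 count in any library. At this depth that does not show that its RNA was absent. NME7 starts from the same stretch of DNA, and whether the reads of its row began there was not tested. Of 24 features within 500 kb of the locus 12 had no count, 22 had at most 3 counts in every library and 2 were tested. With the activating construct, where 44.8% of tested genes were called, SCYL3 rose by 2.07 (edgeR adjusted p = 1.10e-12). Its opposite-strand partner C1orf112, which shares 1297 exonic bases with it, was not called in any line. C1orf112 was at -0.31 in the activating line (edgeR adjusted p = 0.205), and with total count scaling it was called there as lower, at -0.76 (edgeR adjusted p = 0.0024).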

How the data were processed

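RNA-seq libraries of 4 LNCaP lines under 2 treatments (32 libraries, 4 per group) were analysed. The authors ran the nf-core rnaseq pipeline against GRCh37 with Salmon 1.9.0 and deposited its unnormalized estimated counts of 57773 genes. The annotation release and strand setting are not given in the sources used here. These counts were rounded to integers, and genes were kept by filterByExpr over the 8 groups (3985 genes), scaled by TMM and tested with edgeR 4.0.16 in R 4.3.3 (estimateDisp and glmQLFit with robust estimation, glmQLFTest) over the groups compared, with Benjamini-Hochberg adjustment over all tested genes at 0.05. A standard error was derived as the size of the fold change over the root of its F statistic, and 95% intervals use the normal approximation. DESeq2 1.42.0, other scalings, no filter, a fit over all libraries, a replicate block and leaving out each library were alternatives. The fit was tested on simulated data.

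Replicate numbers were not taken as pairs, because no label gives them a shared culture and same-numbered libraries did not all deviate together. Within a line, Pearson's r between the deviations of same-numbered libraries from their group means ran from -0.0261 to 0.249. The members and lists were chosen with earlier results of these data known. Named genes were the members, the tested genes of the sodium pump list (some listed genes are not reported here), up to 4 genes per other list with the smallest adjusted p, the 5 genes most correlated with NME7 over libraries and over group means (log2 CPM, prior count 2, mean of at least 20 counts), and the nearest neighbours. Interaction tests of list genes and the relaxed motif were added after seeing the data. Exon overlaps come from the lifted GENCODE annotation (GRCh37), which held 96.1% of the genes in the table, and promoters from RefSeq (GRCh38.p14), where both genes were found. Totals of 454982 to 1164808 counts limit precision, and ATP1B1 with 1 to 14 counts most of all.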

Additional observations from a re-analysis of the deposited data

Results flagged for a closer look

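Among 16 groups of 4 libraries examined (NME7 and ATP1B1 in 8 groups each), 0 held a library far from the rest, where chance alone gives such a library in about 1 of 20 groups.

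The response to tamoxifen differed between the activating and neutral lines for these list genes, by an interaction test in edgeR that was chosen after seeing the data. The log2 difference of responses was 2.20 for STK39 and 3.91 for KCNMA1 (edgeR adjusted p = 0.0039 and 0.000806), where KCNMA1 had 0 to 4 counts in the neutral libraries, so that its fitted value depends on the prior count. TUBGCP2 differed by -0.89 and TUBGCP4 by 0.89 (edgeR adjusted p = 0.0186 and 0.0097), and SCYL3 by 2.23 (edgeR adjusted p = 3.16e-11). The TUBGCP2 difference was not called with DESeq2 (adjusted p = 0.0535), without the filter on low counts (edgeR adjusted p = 0.0522) or without activating tamoxifen replicate 3 (edgeR adjusted p = 0.0558), and that of TUBGCP4 not with total count scaling (edgeR adjusted p = 0.105).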

How the results depend on the processing

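NME7 in the neutral line rose by 0.56 with an edgeR adjusted p under 0.05. Its log2 fold change was 0.57 with DESeq2 and 0.43 with total count scaling, neither past the threshold, and 0.48 to 0.63 with 1 library left out, where 4 of 8 fits kept the call. With the replicate block it was 0.56 (edgeR adjusted p = 0.0238), and the block changed no other call of NME7 or ATP1B1. With the block, calls over all genes went from 388 to 208 and from 274 to 155 for neutral against parental under vehicle and tamoxifen, and from 0 to 32 for the parental line. For tamoxifen against vehicle they went from 188 to 253 in the neutral and from 709 to 931 in the repressive line. In the neutral line ATP1B1 ranged from -0.47 to 0.05 with 1 library left out, turning sign without neutral tamoxifen replicate 3 (0.05) or vehicle replicate 2 (0.03), and in the activating line from -0.45 to 0.05, turning sign without tamoxifen replicate 2 (0.04) or vehicle replicate 1 (0.05). Total count scaling moved the median of all tested genes by -0.45 in the activating, -0.13 in the repressive and -0.15 in the neutral line, and NME7 there to -2.09, 1.55 and 0.43. Higher and lower calls in the activating line were 876 and 910 with TMM and 442 and 1684 with total count scaling, in the repressive line 311 and 398 against 147 and 576, and in the neutral line 104 and 84 against 27 and 137. The cause of these shifts was not tested. Without the low-count filter 24 genes passed in the parental line. DESeq2 called 451 genes against 709 in the repressive line and 180 against 274 for neutral against parental under tamoxifen, and total count scaling called 32 against 59 for the difference of responses. Leaving out 1 library gave 105 (neutral tamoxifen replicate 3) to 415 (tamoxifen replicate 4) calls in the neutral line. Leaving out 1 library moved the 388 calls of neutral against parental under vehicle to 202 (without parental vehicle replicate 3), 215 or 241 (without neutral vehicle replicate 2 or 4), the 274 under tamoxifen to 155 (without neutral tamoxifen replicate 3), and the 59 of the difference of responses to 34 (without neutral vehicle replicate 2 or parental tamoxifen replicate 4) or 37 (without neutral vehicle replicate 1). Over all alternatives run, the sign turned in 0 of 106 values of NME7 and in 4 of 106 of ATP1B1, and a call changed in 6 and 0.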
